A study of Mus musculus with 9 samples.

Results

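The Wnt system of mouse ear dermis was followed through 55 genes, taken by symbol from the 52550 rows of a table of RNA-seq read counts. They were 19 Wnt ligands, 10 Frizzled receptors, the 2 LRP co-receptors, 7 R-spondins and Lgr receptors, 12 secreted antagonists and 5 feedback genes and nuclear factors. The rule used symbols and no measured value, but the list was drawn up with earlier results of these data known. Of these, 50 had enough reads for testing, and 5 (Wnt1, Wnt7a, Wnt8a, Dkk1 and Dkk4) were near 0 in every library, at 0.161 CPM or less (read counts scaled to library size by the TMM factors of edgeR).

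The study asked how an oral herbal decoction, Xiao-Yin-Fang (XYF), changed gene expression in psoriasis-like skin. All groups were wild-type C57BL/6 mice (C57BL/6J in the methods) of 8 weeks, and every group had an ointment on the ear for 5 days and a gavage of 200 µl for 10 days. The methods and the figure legend of the ear experiment differ on how many times a day the gavage was given. The mice were male according to the methods. The control group, VAS+H2O, had vaseline and water. The model group, IMQ+H2O, had imiquimod cream, a Toll-like receptor 7 agonist that inflames the skin, and water. The treated group, IMQ+XYF, had imiquimod cream and XYF at 23.3 mg/g, begun 5 days before the cream. XYF was not given without imiquimod in these groups, so its comparison is made within imiquimod-treated skin only. Each group held 3 libraries. The methods describe the RNA as taken from ear sheets of 2 mice and leave unsaid whether that means each library or each group, so a library may be a pool of animals, or libraries of a group may share an animal. The p-values therefore measure the spread between libraries, part of which may be technical.

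Wnt proteins are secreted lipid-modified ligands. They bind Frizzled receptors, and with the co-receptors Lrp5 and Lrp6 they stabilise beta-catenin, which enters the nucleus and acts with Lef1 and the TCF factors. R-spondins, through Lgr4, Lgr5 and Lgr6, keep Frizzled receptors at the cell surface. Secreted antagonists bind the ligands (Sfrp proteins, Wif1), block the co-receptors (Dkk1, Sost) or remove the lipid from the ligand (Notum), while Axin2, Nkd1 and Nkd2 feed back on the pathway inside the cell. In skin the pathway is known for its part in hair follicle growth, in the epidermis and in dermal fibroblasts, and it also acts in cartilage.

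The libraries held 28756305 to 79836881 counted reads, and 22430 genes were tested. Markers of fibroblasts, the main cells of the labelled tissue, dermis, were present in every library, with 12 genes summing to 12560 to 29220 CPM. Other tissues were present too. The sum of 20 cartilage markers ran from 1007 to 8488 CPM, that of 16 epidermal keratinocyte markers from 3316 to 25040 CPM and that of 12 skeletal muscle markers from 143 to 2983 CPM. VAS+H2O replicate 1 and IMQ+XYF replicate 2 stood highest in the cartilage markers, at 8488 and 6256 CPM, against 3245 CPM or less in the other 7 libraries. IMQ+XYF replicate 1 stood highest in the keratinocyte markers, at 25040 CPM, against 10550 CPM or less in the others. The sources used here do not say whether strand was used in counting, so reads of Wnt5a, Wnt7b, Wnt11, Fzd5, Fzd6, Rspo3, Sfrp2, Notum, Axin2 and Lef1 may include some from genes on the other strand whose exons overlap theirs. In bulk tissue such as this, fewer cells of a type and less RNA per cell cannot be told apart.

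In control dermis the highest levels per length of gene belonged to antagonists. Mean levels in VAS+H2O, in CPM per kb of exon, were 439 ± 240 for Wif1 and 109 ± 52.5 for Dkk3 (SD, n = 3). The highest genes of the other classes were Fzd9 at 58.9 ± 25.9, Lrp6 at 18.2 ± 0.928, Rspo1 at 18.2 ± 4.87, Nkd2 at 12.95 ± 2.80 and the ligand Wnt11 at 5.08 ± 0.695 CPM per kb (SD, n = 3). The ranges of Wif1 and Dkk3 over the 3 control libraries did not overlap, whereas those of Dkk3 and Fzd9 did. Those of Fzd9 and Fzd1 overlapped too, at 38.8 to 88.1 and 34.2 to 42.8 CPM per kb. In IMQ+H2O the mean of Fzd1 was above that of Fzd9, at 34.7 against 26.5 CPM per kb. Wif1, Dkk3 and Fzd9 were each highest in VAS+H2O replicate 1, the control library highest in cartilage markers. Wif1 read 712 CPM per kb there, against 260 and 344.

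**Figure D1:**
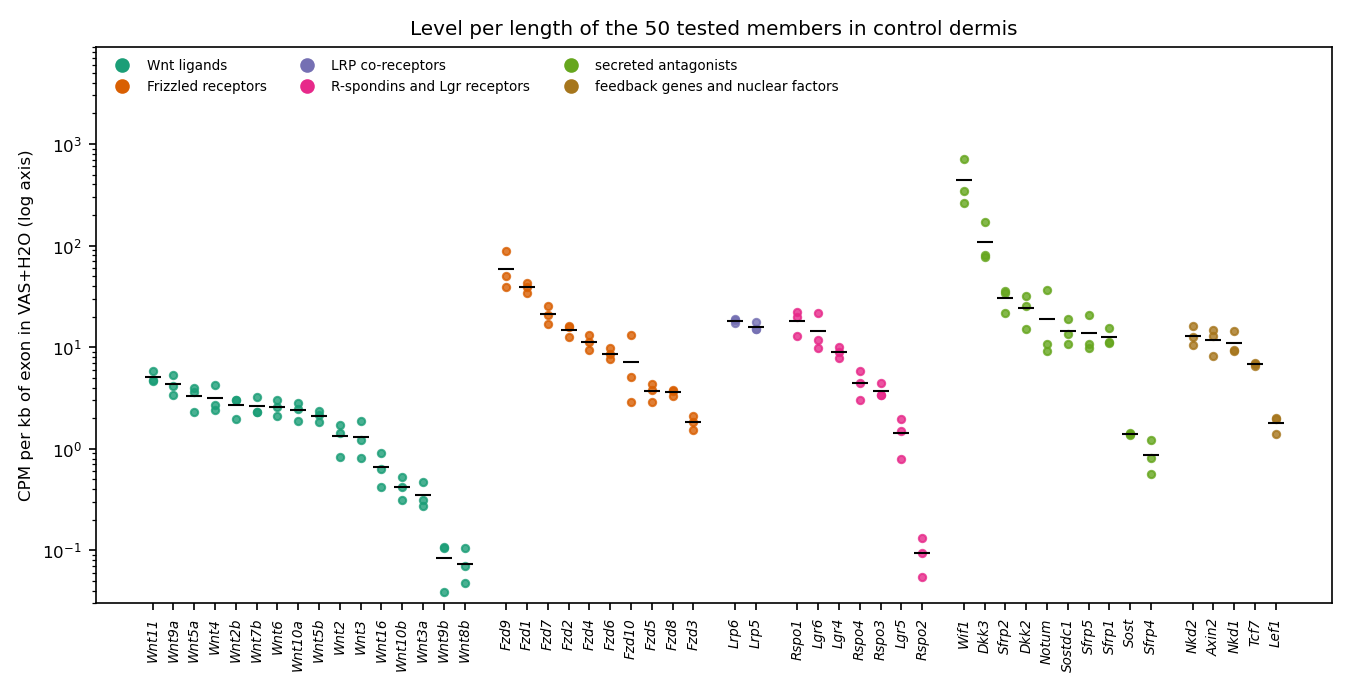
Level of each of the 50 tested members in the control group, in CPM per kb of exon on a log axis, with the 3 VAS+H2O libraries as points, the mean as a bar and colours for the classes. Wif1 stands highest, at a mean of 439 CPM per kb, and the highest ligand, Wnt11, at 5.08.

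With imiquimod, most members stood lower than in the control group, but a single member passed the test. Wnt9b passed it, 5.68-fold higher, and 0 members passed it in the lower direction. A gene was called when the quasi-likelihood test of edgeR, adjusted over all genes by the Benjamini-Hochberg method, gave an adjusted p of 0.05 or lower and the log2 fold change was 1 or more in size. Over all 22430 genes 0.646% were called higher and 0.348% lower, so a single called member of 50 is no result about the members as a group. Of the 50 tested members 41 had a log2 fold change below 0, against 52.3% of all genes, and their median was -0.48, against -0.02 over all genes. At an unadjusted p of 0.05 or lower, 18 members stood lower and 2 higher, where 10.8% and 10.1% of all genes did. The 3 model libraries lay wholly below the 3 control libraries for 18 members and wholly above for 2, and the same was seen in 16.5% and 15.1% of all genes. DESeq2, the tool named in the study's methods, called 5 members, Wnt9b higher and Fzd9, Sfrp2, Wif1 and Wnt3a lower, with 3.9% of genes called in either direction.

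With XYF given to imiquimod-treated mice, 0 members were called by edgeR, and 0.00892% of all genes were. At an unadjusted p of 0.05 or lower, 8 members were higher and 4 lower, against 6.35% and 5.39% of all genes. The XYF libraries lay wholly above the model libraries for 7 members and wholly below for 5, with 9.22% and 8.74% of all genes doing so. Above 0 were 30 of the 50 log2 fold changes, against 50.7% over all genes, and the median was 0.11. DESeq2 called 4 members, Wnt3a and Fzd9 higher and Sost and Wnt9b lower, with 1.1% of genes called. Wnt9b, Fzd9, Wif1 and Wnt3a are the genes the study itself lists for this pathway in dermis, as changed in both comparisons. They were picked by it from these same libraries, so their directions are not independent evidence. Of these 4, Wif1 was not called here by DESeq2 with XYF (adjusted p = 0.11 from its Wald test). The imiquimod and XYF comparisons share the model libraries, and a member that happened to read low there would stand low in the first and high in the second.

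**Figure D2:**
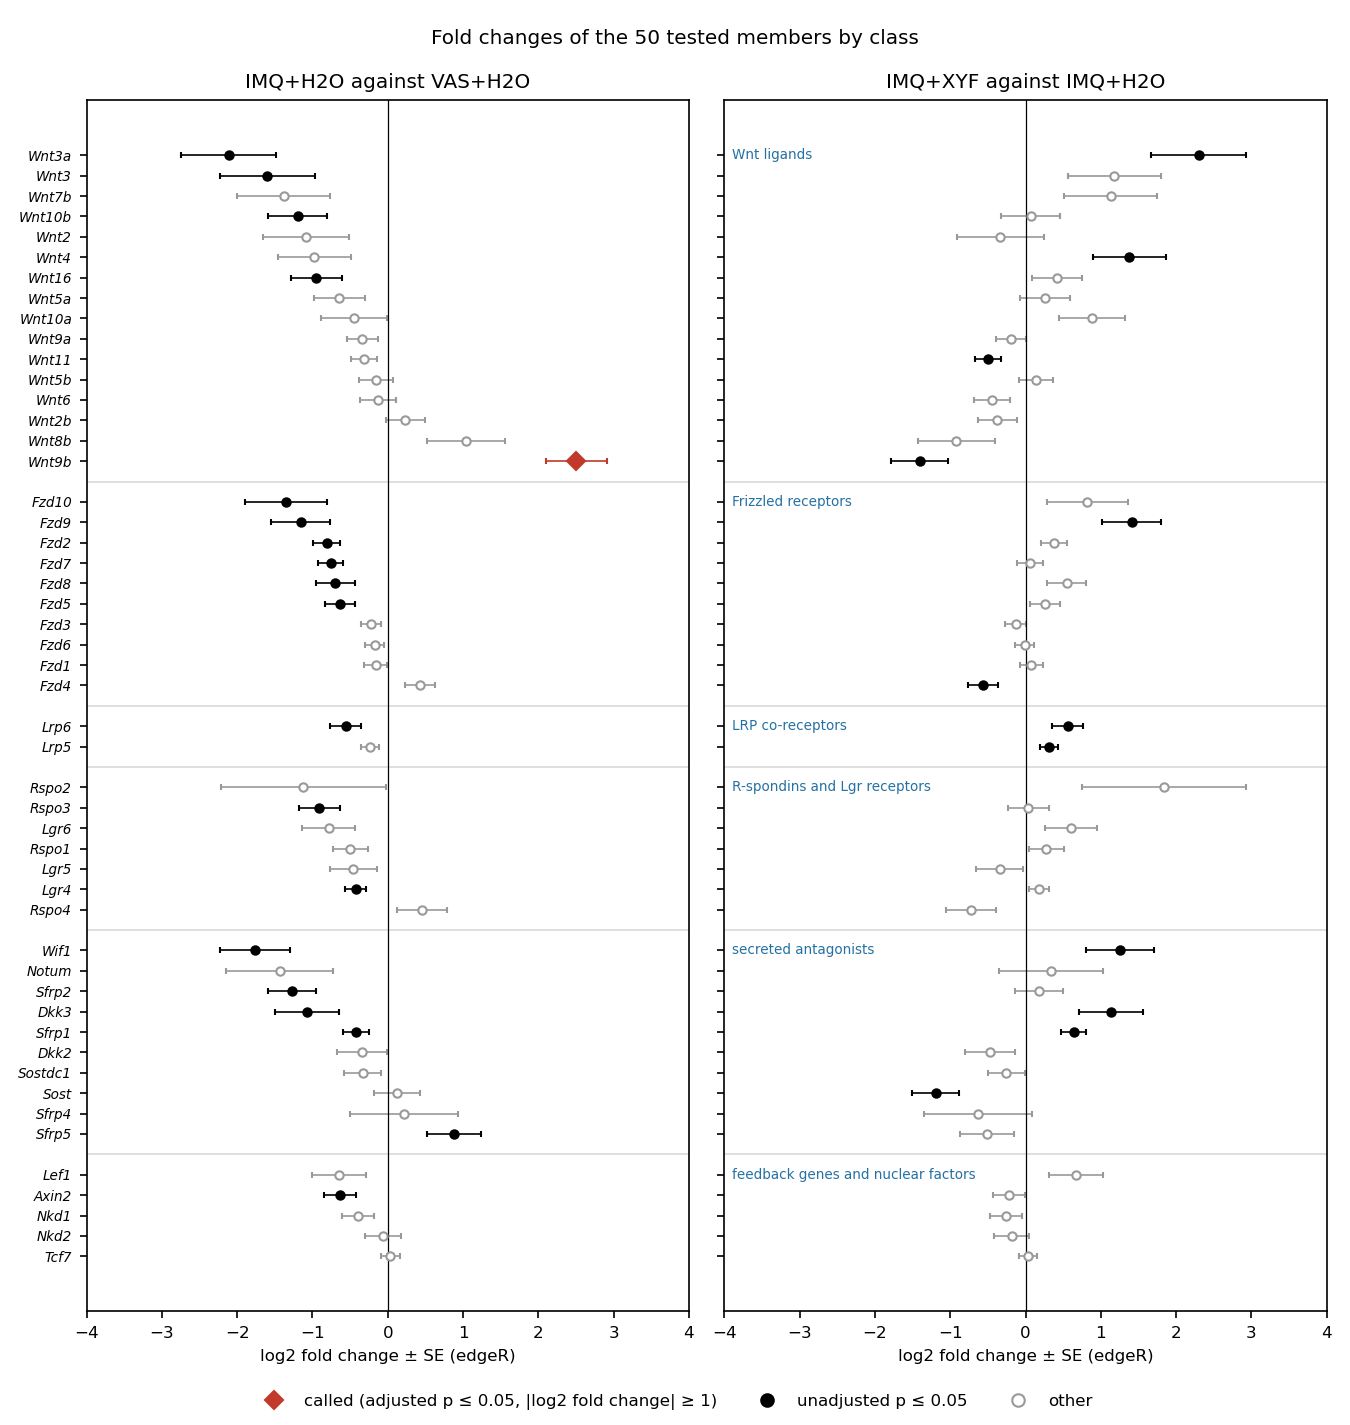
Log2 fold change ± SE (edgeR) of the 50 tested members by class, for imiquimod (left) and for XYF in imiquimod-treated mice (right), with a red diamond for a called member and filled circles for an unadjusted p of 0.05 or lower. On the left 41 of 50 points lie below 0 and Wnt9b is the called member at 2.51; on the right 30 lie above 0 and none is called.

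Among the Wnt ligands, the 1 called gene was also among the least abundant. Wnt9b, a ligand known from kidney and facial development, read 0.485, 0.473 and 0.174 CPM in VAS+H2O, 2.55, 1.601 and 2.15 CPM in IMQ+H2O and 0.796, 0.692 and 0.877 CPM in IMQ+XYF. These were 20, 17 and 13 reads in VAS+H2O, 74, 66 and 110 in IMQ+H2O and 64, 34 and 54 in IMQ+XYF. All 3 model libraries lay above all others, and the XYF libraries lay between the model and the control group with no overlap on either side. The log2 fold change was 2.51 ± 0.41 (SE) with imiquimod (edgeR's adjusted p = 0.0308) and -1.41 ± 0.38 (SE) with XYF (edgeR's adjusted p = 0.364). The XYF change was not called by edgeR and was called by DESeq2, with an adjusted p of 0.0397 from its Wald test. The imiquimod call held in 7 of the 14 alternative analyses, with adjusted p from 1.01e-06 (DESeq2) up to 0.119 (edgeR). It was lost in every fit that left out a control or model library, where the log2 fold change lay between 2.12 and 2.75.

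Wnt9b lies at chr11:103727364-103749821 on the minus strand of GRCm38. The 250 bases before its RefSeq start (GRCm38.p6, chr11:103749822-103750071, minus strand) are shown because it was the called member. They run 5′ to 3′ up to the start, with each CpG, the dinucleotide that DNA methylation acts on, in capitals.
Wnt9b: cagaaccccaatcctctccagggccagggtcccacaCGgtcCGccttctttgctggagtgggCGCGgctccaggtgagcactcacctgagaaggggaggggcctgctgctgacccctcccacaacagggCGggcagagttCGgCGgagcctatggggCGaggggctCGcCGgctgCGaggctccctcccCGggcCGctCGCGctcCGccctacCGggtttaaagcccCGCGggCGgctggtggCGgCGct
The stretch holds 22 CpG, against a median of 17 over the 43 promoters of the 36 members found in the RefSeq table and of 6 over all 32851 promoters of that table. The letters CTTTGA or TCAAAG, the core that TCF and LEF factors bind on either strand, do not occur in it. Those letters stood in 13.8% of all promoters and in 11.6% of the members' promoters, those of Dkk1, Fzd1, Lef1, Wnt11 and Wnt5b. ACAATG or CATTGT, a core bound by SOX factors, which overlaps neither, stood in 10.7% of all and 9.3% of the members' promoters and also not in that of Wnt9b.

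Wnt3a, a ligand of the beta-catenin pathway, was near the other end of the ligands in direction. It read 0.752, 1.31 and 0.871 CPM in VAS+H2O, 0.172, 0.3397 and 0.156 CPM in IMQ+H2O and 2.14, 0.5695 and 0.585 CPM in IMQ+XYF. These were 31, 47 and 65 reads in VAS+H2O, 5, 14 and 8 in IMQ+H2O and 172, 28 and 36 in IMQ+XYF, so the model values rest on few reads. The model libraries lay below all the others, and IMQ+XYF replicate 1 was the highest of the 9. Imiquimod gave a log2 fold change of -2.11 ± 0.63 (SE) (edgeR's adjusted p = 0.121) and XYF 2.30 ± 0.63 (SE) (edgeR's adjusted p = 0.364). Without IMQ+XYF replicate 1 the XYF value was 1.36.

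IMQ+XYF replicate 1 was also the highest library for Wnt4, Wnt7b and Wnt10a, ligands that epidermal cells are known to make. Wnt4 read 11.4, 17.9 and 10.2 CPM in VAS+H2O, 6.51, 7.91 and 5.598 CPM in IMQ+H2O and 32.02, 7.34 and 12.7 CPM in IMQ+XYF. Its log2 fold change was -0.98 ± 0.48 (SE) with imiquimod (edgeR's adjusted p = 0.285) and 1.38 ± 0.49 (SE) with XYF (edgeR's adjusted p = 0.379), and 0.59 for XYF without IMQ+XYF replicate 1. Wnt3 read 3.74, 5.73 and 2.51 CPM in VAS+H2O, 0.896, 2.35 and 0.683 CPM in IMQ+H2O and 5.41, 1.99 and 1.48 CPM in IMQ+XYF, at -1.60 ± 0.63 (SE) with imiquimod (edgeR's adjusted p = 0.197). Its highest library was VAS+H2O replicate 2, with IMQ+XYF replicate 1 next. Wnt7b read 11.35, 15.79 and 11.32 CPM in VAS+H2O, 4.20, 7.35 and 3.20 CPM in IMQ+H2O and 22.7, 4.47 and 4.99 CPM in IMQ+XYF. Its model libraries lay below the controls, at -1.38 ± 0.62 (SE) with imiquimod (edgeR's adjusted p = 0.243), and XYF gave 1.13 ± 0.61 (SE) (edgeR's adjusted p = 0.492). Wnt10a read 4.66, 7.03 and 6.02 CPM, 4.20, 5.60 and 3.18 CPM, and 14.2, 4.70 and 4.99 CPM in the same groups. It was at -0.45 ± 0.44 (SE) with imiquimod and 0.88 ± 0.44 (SE) with XYF, and its groups overlapped.

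The sum of 16 epidermal keratinocyte markers moved with these ligands to differing degrees, while with imiquimod the markers of activated keratinocytes went the other way. With imiquimod 15 of the 16 had a log2 fold change below 0 and 1 above, with 0 called by edgeR and 1 by DESeq2. The model libraries lay wholly below the controls for 3 of the 16. The sum of the 16 was 8010, 10550 and 5257 CPM in VAS+H2O, 3316, 4737 and 4098 CPM in IMQ+H2O and 25040, 6207 and 7765 CPM in IMQ+XYF, and none of the 16 was at 0 in all libraries of a group. Wnt4 divided by that sum, a ratio added after the data were seen, stayed within 11.8 to 19.6 CPM per 10000 CPM of markers, a range of 1.66-fold where the Wnt4 level itself ranged 5.72-fold. The ratios of the other ligands ranged more widely, 2.24-fold for Wnt10a, 3.26-fold for Wnt3, 3.35-fold for Wnt7b and 4.35-fold for Wnt3a. Wnt3a per 10000 CPM of markers was 0.939, 1.24 and 1.66 in VAS+H2O, 0.519, 0.717 and 0.381 in IMQ+H2O and 0.855, 0.918 and 0.753 in IMQ+XYF, so the model libraries were still lowest, with no overlap, and IMQ+XYF replicate 1 no longer stood out. The 3 model ratios rest on 5, 14 and 8 reads of Wnt3a. The 8 markers of activated keratinocytes summed to 249, 378 and 393 CPM in VAS+H2O, 537, 859 and 617 CPM in IMQ+H2O and 1671, 649 and 3258 CPM in IMQ+XYF. All 8 had a log2 fold change above 0 with imiquimod, 0 were called by edgeR and 4 by DESeq2, and the sum was lowest in the control libraries, where that of the 16 was lowest in the model libraries. The part of either list in the ligand values was not tested.

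For Wnt10b and Wnt16 the log2 fold change with imiquimod was below 0 and that with XYF was not called. Wnt10b, a ligand known from hair follicles and fat, read 1.07, 1.81 and 1.42 CPM in VAS+H2O, 0.654, 0.873 and 0.351 CPM in IMQ+H2O and 0.597, 0.834 and 0.536 CPM in IMQ+XYF. The control libraries lay above all others. Imiquimod gave a log2 fold change of -1.20 ± 0.39 (SE) (edgeR's adjusted p = 0.141) and XYF 0.070 ± 0.39 (SE) (edgeR's adjusted p = 0.956). Wnt16 read 1.82, 3.97 and 2.76 CPM in VAS+H2O, 1.27, 1.94 and 1.21 CPM in IMQ+H2O and 1.87, 1.67 and 2.403 CPM in IMQ+XYF, at -0.95 ± 0.33 (SE) with imiquimod (edgeR's adjusted p = 0.163), and its control and model libraries overlapped.

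Wnt11, a ligand mainly known outside the beta-catenin pathway and in the control group the most abundant ligand per length, read 19.2, 24.3 and 19.5 CPM in VAS+H2O, 17.4, 20.3 and 13.03 CPM in IMQ+H2O and 12.1, 11.8 and 11.9 CPM in IMQ+XYF. The XYF libraries were the lowest of the 9, with a mean of 11.9 ± 0.158 CPM (SD, n = 3). With imiquimod the log2 fold change was -0.31 ± 0.17 (SE) (edgeR's adjusted p = 0.333), with XYF -0.50 ± 0.17 (SE) (edgeR's adjusted p = 0.379), and it was -0.82 ± 0.17 (SE) between IMQ+XYF and VAS+H2O (edgeR's adjusted p = 0.0534). In the last of these DESeq2 gave -0.79 (adjusted p = 0.002385 from its Wald test), past the limit on p but not the limit on fold. The remaining 7 tested ligands (Wnt2, Wnt2b, Wnt5a, Wnt5b, Wnt6, Wnt8b and Wnt9a) had log2 fold changes between -1.08 and 1.04 with imiquimod and between -0.92 and 0.26 with XYF, with overlapping groups in both comparisons. Wnt5a and Wnt5b, ligands of the non-canonical branch, were at -0.64 ± 0.34 and -0.16 ± 0.23 (SE). Wnt5b shares its locus with the more abundant Fbxl14 on the other strand, though their exons do not overlap.

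**Figure D3:**
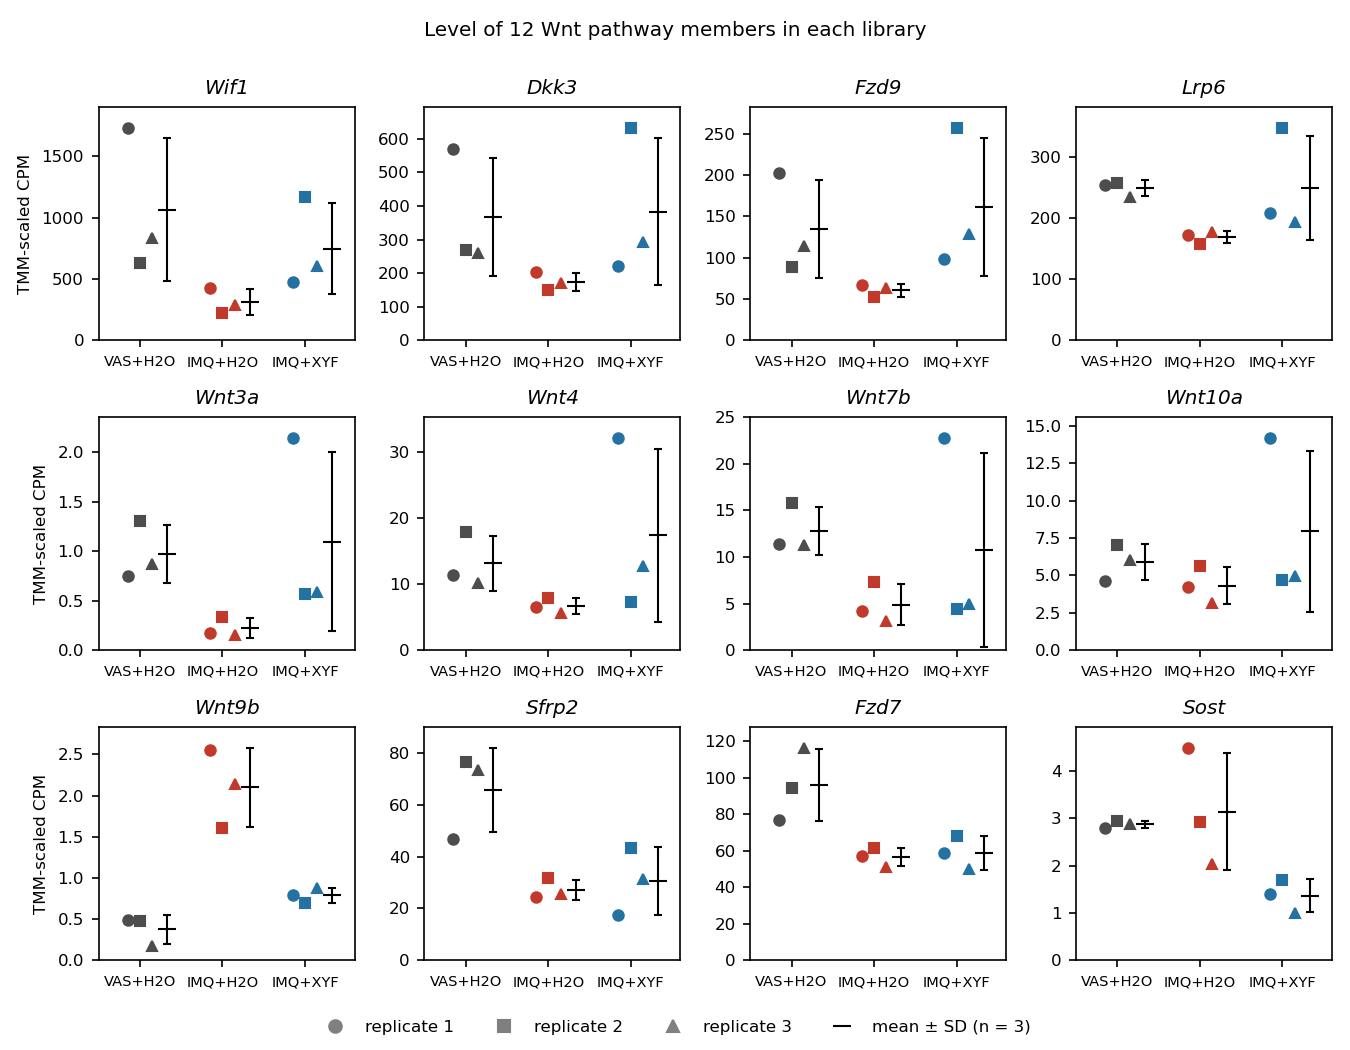
Level of 12 members in each of the 9 libraries, in TMM-scaled CPM, with a marker shape for each replicate and the mean ± SD (n = 3) beside each group. Wnt9b is highest in the 3 model libraries, Wif1, Dkk3 and Fzd9 are highest in VAS+H2O replicate 1 and IMQ+XYF replicate 2, and Wnt3a, Wnt4, Wnt7b and Wnt10a in IMQ+XYF replicate 1.

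Of the 10 Frizzled receptor genes, 9 had a log2 fold change below 0 with imiquimod, with a class median of -0.66, and 0 were called by edgeR, while DESeq2 called Fzd9. At an unadjusted p of 0.05 or lower 6 of the 10 stood lower, against 10.8% of all genes. The 3 model libraries lay wholly below the controls for 5 of the 10, against 16.5% of all genes. Fzd2, a receptor also used by Wnt5a, read 58.4, 46.1 and 58.9 CPM in VAS+H2O, 34.3, 31.1 and 27.7 CPM in IMQ+H2O and 32.3, 50.4 and 38.5 CPM in IMQ+XYF, at -0.81 ± 0.18 (SE) with imiquimod (edgeR's adjusted p = 0.0637). Fzd7 read 76.9, 94.6 and 116 CPM in VAS+H2O, 57.1, 61.5 and 51.5 CPM in IMQ+H2O and 58.98, 68.3 and 49.8 CPM in IMQ+XYF, at -0.76 ± 0.17 (SE) (edgeR's adjusted p = 0.06804). Both had control libraries above every model library. With imiquimod DESeq2 gave adjusted p of 0.00297 for Fzd2 and 0.005955 for Fzd7 (Wald test), and both missed the limit on fold. With XYF Fzd2 was at 0.38 ± 0.18 (SE) and Fzd7 at 0.059 ± 0.17 (SE), and neither was called. Per 10000 CPM of fibroblast markers, a ratio chosen after the data were seen, the groups overlapped in Fzd2, with 17.3 to 32.3 in VAS+H2O, 14.3 to 27.3 in IMQ+H2O and 18.4 to 36.8 in IMQ+XYF. The part of fibroblasts in the Fzd2 values was not tested.

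Fzd5 and Fzd8 were less abundant and likewise not called in either comparison. Fzd5 read 20.1, 29.7 and 26.3 CPM in VAS+H2O, 14.6, 17.9 and 16.6 CPM in IMQ+H2O and 16.96, 25.2 and 16.7 CPM in IMQ+XYF, at -0.63 ± 0.20 (SE) with imiquimod (edgeR's adjusted p = 0.138). Fzd8 read 22.8, 19.7 and 22.1 CPM in VAS+H2O, 12.7, 13.8 and 13.4 CPM in IMQ+H2O and 13.4, 28.9 and 16.04 CPM in IMQ+XYF, at -0.69 ± 0.26 (SE) (edgeR's adjusted p = 0.175). With XYF Fzd5 was at 0.26 ± 0.20 (SE) and Fzd8 at 0.55 ± 0.25 (SE), and in both genes IMQ+XYF replicate 2 was the highest of its group. Fzd10 read 42.9, 16.6 and 9.47 CPM in VAS+H2O, 12.3, 5.29 and 9.401 CPM in IMQ+H2O and 19.95, 16.98 and 10.6 CPM in IMQ+XYF, at -1.35 ± 0.54 (SE) (edgeR's adjusted p = 0.205). That value rested on VAS+H2O replicate 1, without which it was -0.54.

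Fzd9 had the highest mean level per length of the Frizzled genes in the control group. It read 202, 88.96 and 114 CPM in VAS+H2O, 67.1, 52.1 and 62.98 CPM in IMQ+H2O and 98.5, 257 and 129 CPM in IMQ+XYF. The model libraries lay below all the others, and IMQ+XYF replicate 2 and VAS+H2O replicate 1 were the highest. Imiquimod gave a log2 fold change of -1.15 ± 0.39 (SE) (edgeR's adjusted p = 0.151) and XYF 1.41 ± 0.39 (SE) (edgeR's adjusted p = 0.364). Without VAS+H2O replicate 1 the imiquimod value was -0.75, and without IMQ+XYF replicate 2 the XYF value was 0.93.

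Fzd4, a receptor known for its part in blood vessels, was the 1 Frizzled gene above 0 with imiquimod. It read 62.3, 76.2 and 87.5 CPM in VAS+H2O, 95.7, 97.3 and 111 CPM in IMQ+H2O and 57.8, 57.9 and 90.3 CPM in IMQ+XYF. Each model library lay above every other library. The log2 fold change was 0.43 ± 0.20 (SE) with imiquimod (edgeR's adjusted p = 0.251) and -0.56 ± 0.20 (SE) with XYF (edgeR's adjusted p = 0.379). The sum of 10 endothelial markers was 685, 810 and 1081 CPM in VAS+H2O, 1422, 1391 and 1482 CPM in IMQ+H2O and 914, 538 and 1302 CPM in IMQ+XYF, highest in the model libraries as Fzd4 was, and its part in the Fzd4 values was not tested. Fzd1, Fzd3 and Fzd6 were between -0.22 and -0.16 with imiquimod and between -0.13 and 0.08 with XYF.

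The co-receptor genes Lrp5 and Lrp6 were both lower in every model library than in any control library, and higher in every XYF library than in any model library, with neither called. Lrp6 read 254, 258 and 234 CPM in VAS+H2O, 171, 157 and 178 CPM in IMQ+H2O and 208, 347 and 193 CPM in IMQ+XYF. Its log2 fold change was -0.56 ± 0.20 (SE) with imiquimod (edgeR's adjusted p = 0.173) and 0.56 ± 0.20 (SE) with XYF (edgeR's adjusted p = 0.381), the latter 0.27 without IMQ+XYF replicate 2. Lrp5 read 172, 147 and 147 CPM in VAS+H2O, 117, 144 and 134 CPM in IMQ+H2O and 163, 179.9 and 147 CPM in IMQ+XYF, at -0.23 ± 0.12 (SE) with imiquimod (edgeR's adjusted p = 0.305) and 0.31 ± 0.12 (SE) with XYF (edgeR's adjusted p = 0.396).

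Among R-spondins and their receptors 0 genes were called by edgeR or DESeq2 in either comparison, and Rspo3 and Lgr4 had an unadjusted p of 0.05 or lower with imiquimod. Rspo3, an R-spondin made by stromal cells, read 10.5, 10.4 and 13.7 CPM in VAS+H2O, 7.85, 6.58 and 4.04 CPM in IMQ+H2O and 7.94, 6.04 and 4.89 CPM in IMQ+XYF. The control libraries lay above the 6 imiquimod-treated libraries, at -0.91 ± 0.28 (SE) for imiquimod (edgeR's adjusted p = 0.126) and 0.036 ± 0.27 (SE) for XYF (edgeR's adjusted p = 0.9700). With imiquimod DESeq2 gave Rspo3 -0.89 (adjusted p = 0.0432 from its Wald test), past the limit on p but not the limit on fold. The receptor gene Lgr4 read 53.03, 45.6 and 59.1 CPM in VAS+H2O, 41.95, 38.04 and 37.3 CPM in IMQ+H2O and 41.3, 51.9 and 39.7 CPM in IMQ+XYF, at -0.43 ± 0.14 (SE) with imiquimod (edgeR's adjusted p = 0.135). Rspo1, the highest R-spondin per length, read 43.01, 24.8 and 38.1 CPM in VAS+H2O, 29.4, 20.4 and 25.3 CPM in IMQ+H2O and 31.97, 35.2 and 23.7 CPM in IMQ+XYF, at -0.50 ± 0.23 (SE) with imiquimod (edgeR's adjusted p = 0.264), and its groups overlapped. Lgr5, a marker of hair follicle stem cells, was at -0.45 ± 0.31 (SE) with imiquimod and Lgr6 at -0.79 ± 0.35 (SE). Lgr6 was highest in VAS+H2O replicate 1 and IMQ+XYF replicate 2, at 148.5 and 122.7 CPM, where the other libraries read 80.5 CPM or less. Rspo2 stayed at 1.73 CPM or less, and Rspo4 was at 0.46 ± 0.33 (SE) with imiquimod.

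Of the 10 tested antagonist genes 7 had a log2 fold change below 0 with imiquimod, and 0 were called by edgeR. Wif1, which binds Wnt ligands and is known from cartilage, read 1729, 632 and 835 CPM in VAS+H2O, 428, 227 and 285 CPM in IMQ+H2O and 472, 1169 and 603 CPM in IMQ+XYF. Group means were 1065 ± 584 CPM in VAS+H2O, 313 ± 103 CPM in IMQ+H2O and 748 ± 371 CPM in IMQ+XYF (SD, n = 3). The model libraries lay below all others, and VAS+H2O replicate 1 and IMQ+XYF replicate 2 were the highest. The log2 fold change was -1.77 ± 0.46 (SE) with imiquimod (edgeR's adjusted p = 0.09199) and 1.26 ± 0.46 (SE) with XYF (edgeR's adjusted p = 0.381), and edgeR called neither. DESeq2 called the imiquimod change, with an adjusted p of 0.00301 from its Wald test, and not the XYF change, at 0.11. Without VAS+H2O replicate 1 the imiquimod value was -1.23, and without IMQ+XYF replicate 2 the XYF value was 0.81.

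Dkk3, a member of the Dickkopf family that does not act as the typical inhibitors do, read 569.9, 268 and 261 CPM in VAS+H2O, 202, 151 and 169.5 CPM in IMQ+H2O and 222, 631 and 293 CPM in IMQ+XYF. The same libraries were high as in Wif1. Its log2 fold change was -1.07 ± 0.42 (SE) with imiquimod (edgeR's adjusted p = 0.199) and 1.13 ± 0.42 (SE) with XYF (edgeR's adjusted p = 0.385). These came to -0.61 without VAS+H2O replicate 1 and to 0.59 without IMQ+XYF replicate 2.

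The cartilage markers moved with Wif1, Dkk3 and Fzd9. Their sum was 8488, 2936 and 3245 CPM in VAS+H2O, 2094, 1007 and 1556 CPM in IMQ+H2O and 2323, 6256 and 2888 CPM in IMQ+XYF, and of the 20 markers Matn1 was at 0 throughout. Ordered from lowest to highest, the 9 libraries came in the same order for Wif1 as for that sum. Wif1 per 100 CPM of cartilage markers, a ratio chosen after the data were seen, was 20.4, 21.5 and 25.7 in VAS+H2O, 20.4, 22.5 and 18.3 in IMQ+H2O and 20.3, 18.7 and 20.9 in IMQ+XYF. The groups overlapped in that ratio, which ranged 1.40-fold where the level of Wif1 ranged 7.62-fold. Fzd9 per 100 CPM ranged 2.17-fold and Dkk3 2.23-fold, each lowest in VAS+H2O replicate 1 and highest in IMQ+H2O replicate 2. Their mean ratios were higher in IMQ+H2O than in VAS+H2O, at 4.14 ± 0.987 against 2.98 ± 0.574 for Fzd9 and 11.9 ± 2.80 against 7.97 ± 1.21 for Dkk3 (SD, n = 3). With imiquimod these means thus went the other way from the CPM of Fzd9 and Dkk3. The control and model ranges overlapped in Fzd9 (2.381 to 3.525 and 3.202 to 5.17) and not in Dkk3. In IMQ+XYF the mean ratios were 4.27 ± 0.187 for Fzd9 and 9.93 ± 0.323 for Dkk3 (SD, n = 3). All 19 tested cartilage markers themselves had a log2 fold change below 0 with imiquimod. The part of cartilage in the values of Wif1, Dkk3 and Fzd9 was not tested.

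**Figure D4:**
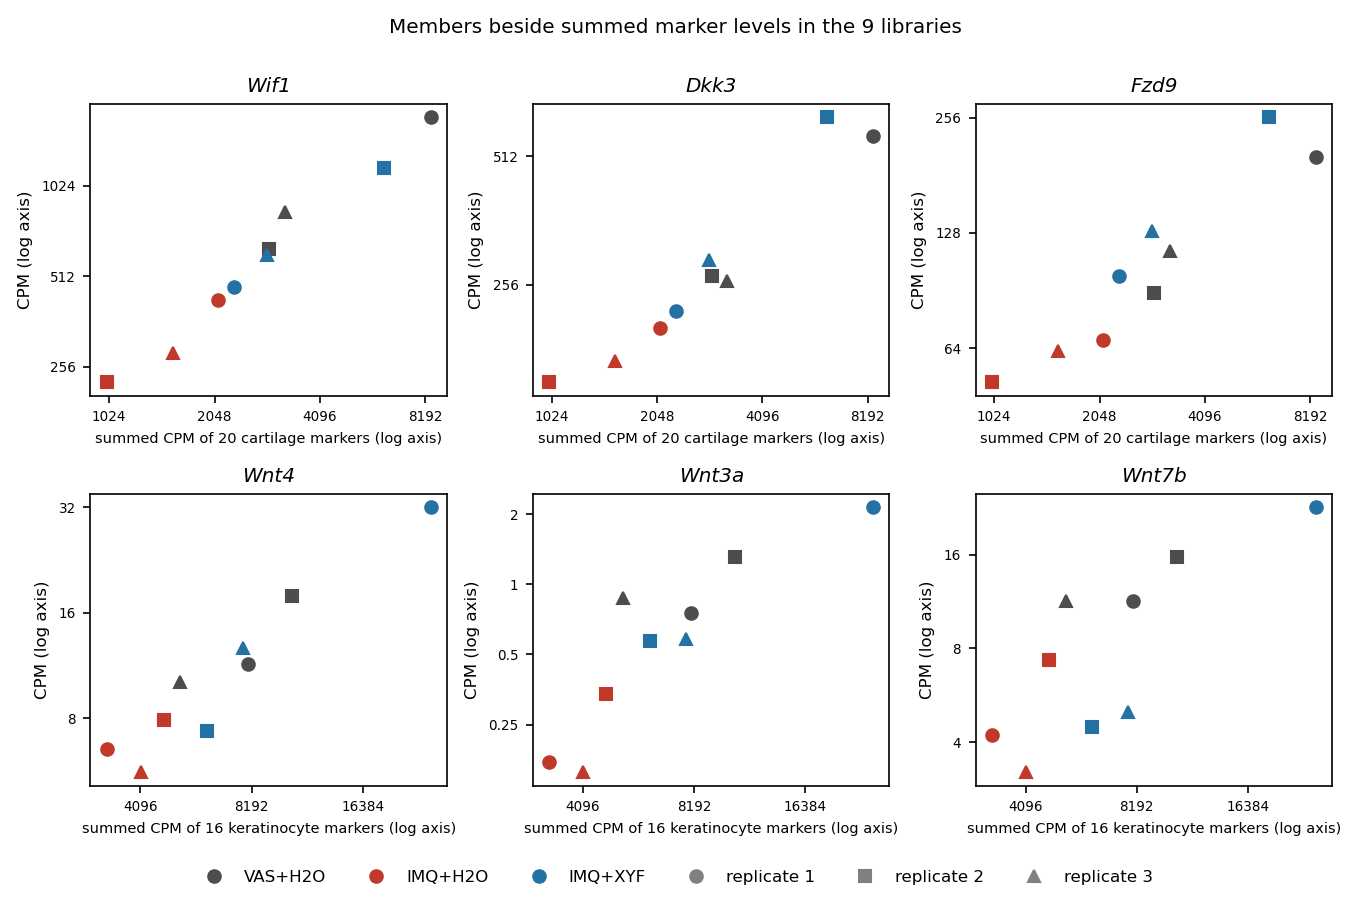
Level of 6 members (vertical, CPM, log axis) against a summed marker level (horizontal, CPM, log axis) in the 9 libraries, coloured by group. Wif1, Dkk3 and Fzd9 are set against 20 cartilage markers and Wnt4, Wnt3a and Wnt7b against 16 keratinocyte markers; the libraries with high marker sums, VAS+H2O replicate 1 and IMQ+XYF replicate 2 above and IMQ+XYF replicate 1 below, hold the highest levels of these members.

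Wif1 lies at chr10:121033960-121100650 on the plus strand of GRCm38. Its sequence before the annotated gene body (RefSeq table, GRCm38.p6, chr10:121033754-121033959, plus strand) is shown because it was the most abundant antagonist gene, 5′ to 3′ and with CpG in capitals.
Wif1: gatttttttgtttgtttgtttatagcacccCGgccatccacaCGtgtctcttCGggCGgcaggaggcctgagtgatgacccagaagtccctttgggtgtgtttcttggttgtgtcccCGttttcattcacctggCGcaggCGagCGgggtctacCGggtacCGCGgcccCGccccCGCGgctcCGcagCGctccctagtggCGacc
These 206 bases hold 17 CpG. The 250 bases before the RefSeq start hold neither the TCF and LEF letters nor the SOX letters given above.

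Sfrp2, a secreted Frizzled-related protein made by dermal fibroblasts, stood lower in both imiquimod-treated groups. It read 46.8, 76.3 and 73.3 CPM in VAS+H2O, 24.3, 31.7 and 25.4 CPM in IMQ+H2O and 17.3, 43.4 and 31.4 CPM in IMQ+XYF. The control libraries lay above all others. Imiquimod gave a log2 fold change of -1.27 ± 0.32 (SE) (edgeR's adjusted p = 0.0843) and XYF 0.18 ± 0.31 (SE) (edgeR's adjusted p = 0.844), while IMQ+XYF against VAS+H2O gave -1.09 ± 0.32 (SE) (edgeR's adjusted p = 0.113). DESeq2 called it in the imiquimod comparison, with an adjusted p of 0.00471 from its Wald test. The fibroblast markers summed to 18120, 26710 and 29220 CPM in VAS+H2O, 12560, 20000 and 19380 CPM in IMQ+H2O and 13460, 13690 and 20920 CPM in IMQ+XYF. Sfrp2 per 10000 CPM of those markers, a ratio chosen after the data were seen, was 25.9, 28.6 and 25.1 in VAS+H2O and 19.3, 15.8 and 13.1 in IMQ+H2O, with no overlap. It ran from 12.9 to 31.7 in IMQ+XYF. Of the 12 fibroblast markers 10 had a log2 fold change below 0 with imiquimod and 2 above. The part of fibroblasts in the Sfrp2 values was not tested.

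Sfrp1 and Sost had the smallest p-values of the antagonists in the XYF comparison. Sfrp1, a secreted Frizzled-related protein, read 67.6, 47.8 and 48.8 CPM in VAS+H2O, 37.3, 47.02 and 38.5 CPM in IMQ+H2O and 66.2, 71.5 and 53.4 CPM in IMQ+XYF, at -0.42 ± 0.17 (SE) with imiquimod (edgeR's adjusted p = 0.215) and 0.64 ± 0.17 (SE) with XYF (edgeR's adjusted p = 0.364). All XYF libraries lay above the model libraries. Without VAS+H2O replicate 1 the imiquimod value of Sfrp1 was -0.24. Sost, which encodes the LRP-binding inhibitor sclerostin of bone, was low in all libraries and read 2.79, 2.95 and 2.88 CPM in VAS+H2O, 4.48, 2.91 and 2.03 CPM in IMQ+H2O and 1.41, 1.69 and 1.01 CPM in IMQ+XYF. The XYF libraries were the lowest of the 9. Its log2 fold change was 0.12 ± 0.31 (SE) with imiquimod (edgeR's adjusted p = 0.8495) and -1.19 ± 0.32 (SE) with XYF (edgeR's adjusted p = 0.364), and DESeq2 called the latter with an adjusted p of 0.0378. Without IMQ+H2O replicate 1 the XYF value was -0.85.

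Sfrp5 was the 1 antagonist that stood higher with imiquimod at an unadjusted p of 0.05 or lower. It read 20.2, 18.8 and 39.1 CPM in VAS+H2O, 52.6, 36.6 and 54.7 CPM in IMQ+H2O and 39.1, 19.4 and 42.5 CPM in IMQ+XYF, at 0.88 ± 0.36 (SE) (edgeR's adjusted p = 0.213), and VAS+H2O replicate 3 overlapped the model libraries. The lipid-removing enzyme gene Notum read 88.2, 22.2 and 25.7 CPM in VAS+H2O, 32.8, 9.001 and 8.68 CPM in IMQ+H2O and 17.4, 33.5 and 12.6 CPM in IMQ+XYF, with VAS+H2O replicate 1 far above the rest and -1.44 ± 0.71 (SE) with imiquimod (edgeR's adjusted p = 0.281). Dkk2, Sfrp4 and Sostdc1 lay between -0.34 and 0.22 with imiquimod, and the groups overlapped in each.

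The feedback genes, which report on beta-catenin signalling in many tissues, were not called by edgeR or DESeq2 in any comparison. Axin2, the most widely used of them, read 80.5, 44.6 and 70.9 CPM in VAS+H2O, 49.3, 42.02 and 35.5 CPM in IMQ+H2O and 35.5, 40.3 and 33.6 CPM in IMQ+XYF, at -0.63 ± 0.21 (SE) with imiquimod (edgeR's adjusted p = 0.152), -0.21 ± 0.21 (SE) with XYF (edgeR's adjusted p = 0.706) and -0.84 ± 0.21 (SE) between IMQ+XYF and VAS+H2O (edgeR's adjusted p = 0.0811). VAS+H2O replicate 2 lay within the model libraries, and all XYF libraries lay below all control libraries. For IMQ+XYF against VAS+H2O DESeq2 gave Axin2 -0.81 (adjusted p = 0.01345 from its Wald test), past the limit on p but not the limit on fold. Nkd2, the feedback gene with the highest level per length, read 50.4, 60.03 and 77.1 CPM in VAS+H2O, 60.9, 69.9 and 48.7 CPM in IMQ+H2O and 54.5, 37.5 and 65.9 CPM in IMQ+XYF, at -0.063 ± 0.23 (SE) with imiquimod (edgeR's adjusted p = 0.8996), and its groups overlapped. Nkd1 was at -0.40 ± 0.21 (SE) with imiquimod and Lef1 at -0.65 ± 0.36 (SE). Tcf7, a TCF factor also abundant in T cells, read 16.5 to 20.6 CPM over the 9 libraries and was at 0.036 ± 0.12 (SE) with imiquimod.

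Between IMQ+XYF and VAS+H2O, which shares its libraries with the other comparisons, 0 members were called by edgeR, with 1.2% of all genes called. At an unadjusted p of 0.05 or lower, 16 members stood lower and 1, Wnt9b, higher, against 8.76% and 9.58% of all genes. No XYF library overlapped the control libraries for 11 members that were lower and 1 that was higher, with 10.3% and 11.7% of all genes doing so. Wnt9b was at 1.101 ± 0.40 (SE) (edgeR's adjusted p = 0.188). DESeq2 called Sfrp2 and Sost lower, with 3.42% of genes called.

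Hair follicle markers also differed between the groups. The sum of 29 markers of the hair matrix, root sheath and shaft was 232, 351 and 674 CPM in VAS+H2O, 60.6, 80.5 and 49.8 CPM in IMQ+H2O and 67.3, 76.9 and 50.9 CPM in IMQ+XYF. Of the 29, 0 were at 0 in all control libraries, 7 in all model libraries and 6 in all XYF libraries. Wnt10b, Sfrp2, Rspo3 and Fzd7, like that sum, were higher in every control library than in any of the other 6, and the part of the follicles in their values was not tested. The follicle lists did not all move alike with imiquimod. All 29 markers above had a log2 fold change below 0, as had all 9 of the follicle stem cells and outer root sheath. Of 7 dermal papilla markers 6 lay above 0 and 1 below, with a median of 0.30, and 0 were called by edgeR. The sum of 7 sebaceous gland markers was 8811 CPM or more in the control libraries and 7559 CPM or less in the others. These 7 did not move as one, with 5 log2 fold changes below 0 with imiquimod and 2 above. The model libraries lay wholly below the controls for 1 of them.

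Beyond the 55 genes, 78 other genes of the pathway were read, of which 77 were tested. EdgeR called 0 of them with imiquimod. At an unadjusted p of 0.05 or lower 26 stood lower and 4 higher, where 10.8% and 10.1% of all genes did, and 64 of 77 lay below 0. The model libraries lay wholly below the controls for 38 and wholly above for 5, against 16.5% and 15.1% of all genes. Wls, the carrier that brings Wnt ligands to the cell surface, read 118.7, 121.5 and 98.5 CPM in VAS+H2O, 68.1, 69.4 and 64.4 CPM in IMQ+H2O and 82.7, 99.6 and 75.8 CPM in IMQ+XYF. Its log2 fold change with imiquimod was -0.75 ± 0.13 (SE; edgeR's adjusted p = 0.0343), past the limit on p but not the limit on fold, under which 1.37% of all genes would pass. Prickle2, of the planar cell polarity branch, was at -0.49 ± 0.10 (SE; edgeR's adjusted p = 0.0594). In the other direction, the matricellular gene Wisp2 was at 0.72 ± 0.19 (SE; edgeR's adjusted p = 0.0943) and the planar polarity cadherin gene Celsr3 at 1.25 ± 0.47 (SE; edgeR's adjusted p = 0.184). DESeq2 called 3 of the 77, Bambi, Tnfrsf19 and Trabd2b, all lower, a share no higher than the 3.9% of all genes it called.

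In the XYF comparison edgeR called 0 of the 77 other genes, with 15 higher and 6 lower at an unadjusted p of 0.05 or lower, against 6.35% and 5.39% of all genes. Trabd2b, a protease that inactivates Wnt ligands, was at 0.96 ± 0.24 (SE; edgeR's adjusted p = 0.363). Znrf3, the ubiquitin ligase that removes Frizzled receptors and that R-spondins hold back, was at 0.72 ± 0.19 (SE; edgeR's adjusted p = 0.364). Tspan12, a partner of Fzd4, was at -0.69 ± 0.22 (SE; edgeR's adjusted p = 0.364), and Wisp2 at -0.58 ± 0.19 (SE; edgeR's adjusted p = 0.368). Tspan12 read 19.5, 17.5 and 16.7 CPM in IMQ+H2O, above each of the other 6 libraries, as Fzd4 did. DESeq2 called 0 of these genes with XYF.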

How the data were processed

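RNA from 9 libraries of mouse ear dermis was sequenced by the authors with a TruSeq kit, and the reads were aligned with STAR (2.5 per the labels) to GRCm38, with FastQC, Cuffnorm and DESeq 1.22.1 also named in the submitters' processing notes. The authors deposited whole-number counts per gene, not normalized. The counting tool and its handling of strand and of reads with several matches are not given in the sources used here. The table has no gene-less rows and no column of another sample.

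Counts were filtered with filterByExpr (minimum count 10), scaled by TMM and fitted for all 9 libraries with edgeR 4.0.16 (quasi-likelihood, R 4.3.3), with Benjamini-Hochberg adjustment over 22430 genes. A call needed an adjusted p of 0.05 or lower and an absolute log2 fold change of 1 or more, as in the methods of the study. The SE of a log2 fold change was taken from its F statistic. DESeq2 1.42.0 was an alternative. A floor of 3 counts came to 0.0373 to 0.103 CPM. Lengths and positions came from GENCODE vM21 and promoters from RefSeq. The fits were tested on simulated data.

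The members, marker lists and other pathway genes were chosen with earlier results of these data known. Values in every library are given for members called in a comparison, with an unadjusted p of 0.05 or lower for imiquimod or XYF, highest per length in their class, or listed by the study; Wnt7b, Wnt10a, Notum and marker ratios were added after their values were seen. Other pathway genes are named when called, otherwise the 2 with the smallest p in each direction. Of 238 listed symbols 236 were found, 3 of them under another name. Summed levels of marker lists set beside no member stand in the closing section.

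Alternatives were DESeq2, RLE size factors, no filter, a replicate block, a fit of only the groups compared, no fold limit and leaving out each library in turn.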

Additional observations from a re-analysis of the deposited data

How the results depend on the processing

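Each of the 32 values that the text gives for members with an unadjusted p of 0.05 or lower kept its sign in 14 of 14 alternatives, while the calls moved. These values were picked by their p in the same libraries, so a sign was unlikely to turn and its keeping is no independent evidence. With imiquimod, the 1 member called became 5 with DESeq2, 3 when only the groups compared were fitted and 0 with the replicate block, and leaving out each library gave 0 to 2: 0 without any of the control or model libraries, and 2 (Sfrp2 and Wnt9b) without IMQ+XYF replicate 1 or 2. With XYF, 0 became 4 with DESeq2. Between IMQ+XYF and VAS+H2O, 0 became 2 with DESeq2, and leaving out each library gave 0 to 1, the 1 being Sfrp2 without IMQ+XYF replicate 2. For the other pathway genes with imiquimod, 0 became 3 with DESeq2, 3 with only the groups compared and 1 with no fold limit, and leaving out each library gave 0 to 2. Replicate numbers are shared by the groups, but same-numbered libraries did not deviate together (correlations of -0.18 to 0.12, 1 of 9 above 0.1, and 0 libraries closest to their own number), so the block is given here only. Over all genes the imiquimod calls were 223, with 86 under the block, 496 with only the groups compared and 25 to 455 without 1 library. RLE factors and no filter left each count of called members as it was. Depth bears most on members with few reads, such as Wnt9b, which rests on 13 to 110 reads a library, and Wnt3a, which rests on 5 to 172.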

Other observations

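Several ligand genes lie next to each other in the genome. Wnt9b and Wnt3 are 24328 bases apart on chromosome 11, on opposite strands, and their values with imiquimod lay on opposite sides of 0. Wnt3a and Wnt9a, also on chromosome 11, are 16175 bases apart, and Wnt6 and Wnt10a, on chromosome 1, are 6193 bases apart.

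Marker lists not set beside a member gave these summed levels over the 9 libraries: dermal papilla 290.3 to 519.7 CPM, hair follicle stem cell and outer root sheath 1083 to 3584 CPM, T cell 22.9 to 47.4 CPM, Schwann cell and nerve 1160 to 2820 CPM and adipocyte 523 to 1209 CPM. Cd44, a target gene of the pathway, was called by DESeq2 between IMQ+XYF and VAS+H2O, at 1.17 on the log2 scale (adjusted p = 0.00531), and by edgeR was at 1.13 ± 0.29 (SE; adjusted p = 0.086).

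The ratios to marker sums that were added after the data were seen and are not given above were as follows. Wnt7b per 10000 CPM of keratinocyte markers was 16.9 ± 4.04 in VAS+H2O, between 7.81 and 15.5 in IMQ+H2O and 7.57 ± 1.37 in IMQ+XYF (SD, n = 3). Wnt3 per 10000 CPM of the same markers was 4.95 ± 0.415 in VAS+H2O, 3.11 ± 1.69 in IMQ+H2O and between 1.90 and 3.21 in IMQ+XYF, and Wnt10a was 7.97 ± 3.03, 10.75 ± 2.63 and 6.55 ± 0.963 (SD, n = 3). The mean ratio of Wnt10a was thus higher in the model than in the control group, where its CPM was lower. Fzd4 per 100 CPM of endothelial markers was 8.87 ± 0.685, 7.08 ± 0.400 and 8.01 ± 2.40 in the same groups, so the model group, highest in CPM, was not highest in the ratio. Fzd7 per 10000 CPM of fibroblast markers was 39.2 ± 3.55, 34.3 ± 9.95 and 39.2 ± 13.7, and its groups overlapped.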
